A study of Mus musculus with 502 samples.

Results

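The mitochondrially encoded genes are the rows of the count table whose name starts with the prefix mt, which were 37 of 46603 gene rows. They comprised 2 rRNA genes, 13 protein genes and 22 tRNA genes, and 19 of the 37 had a read in at least 1 cell. Reads had been counted in 502 single immune cells that were sorted as Cd45+ and propidium iodide negative from kidneys of CD1 wild-type mice, an outbred stock, about 3 weeks old. Kidneys were either digested fresh or first kept intact in a cold organ preservative (HTS-FRS, at 4 °C) for 6 h or for 1, 2, 3 or 4 days. Stock and the protocols of digestion and sort were shared. Kidneys were digested and sorted timepoint by timepoint, so these steps cannot be told apart from time in the cold. Both kidneys of a mouse were pooled up to day 2, while less kidney of each mouse was used at days 3 and 4, so these later groups differ from the fresh ones in the tissue taken as well as in time in the cold. No label names an animal. Each timepoint was accordingly treated as 1 sample, cells were not used as replicates, and no p-value was computed.

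Each cell's title carries 1 of 3 numbers, whose meaning the labels do not state. They were taken as library pools, to which the letters A to C are given here. The fresh cells were split over pool A (75) and pool B (81). Pool A also had the 76 cells of 6 h, the 78 of day 2 and 2 of day 4, pool B the 75 of day 1, the 82 of day 3 and 19 of day 4, and pool C only cells of day 4 (14). Preserved cells were compared with the fresh cells of their own pool, and 6 h and day 2 share their fresh cells, as do day 1, day 3 and day 4 of pool B. Total gene counts per cell ran from 1759 to 1895431, with a median of 695188, and 8 cells had fewer than 100000. No 2 cells had identical counts, and 55.8% of 317 index pairs were used in more than 1 pool. Ptprc, which encodes the sorted antigen Cd45, had a read in 80.5% to 97.5% of the cells of each timepoint and pool up to day 3, in 85.7% of the day 4 cells of pool C and in 42.1% of the day 4 cells of pool B.

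The mitochondrial genome is a small circle that is transcribed from both strands into long precursors, which are cut at the tRNAs to release the rRNAs and mRNAs. Its protein genes encode core subunits of respiratory complexes I, III, IV and V, and its rRNAs build the ribosome that translates them. Most of the mRNAs and the rRNAs carry short poly(A) tails, through which the oligo-dT primer of the SmartSeq2-type protocol can copy them, whereas the mature tRNAs end in CCA. In single-cell work the mitochondrial share of a cell's reads is widely used as a measure of cell quality.

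Several of these genes have near-identical nuclear copies, and the sequences are shown because 5 of the 6 protein genes with the lowest levels per length over all cells are copied almost whole. The first 100 bases of mt-Nd3, a complex I subunit gene at chrM:9459-9806 on the plus strand, differ in a single base from those of Gm28438, an unprocessed pseudogene at chr1:24612775-24613119 on the minus strand. The substitution is T3C, counted from the first base of the gene, and it is in capitals. The first 100 bases of mt-Co2, a complex IV subunit gene at chrM:7013-7696 on the plus strand, are the same as those of the pseudogene Gm28661 at chr1:24614885-24615565 on the minus strand, and no base is in capitals there. Sequences and positions are those of GENCODE M21 on GRCm38, the build to which the reads were aligned.
mt-Nd3: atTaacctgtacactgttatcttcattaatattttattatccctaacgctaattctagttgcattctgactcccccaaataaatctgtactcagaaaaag
Gm28438: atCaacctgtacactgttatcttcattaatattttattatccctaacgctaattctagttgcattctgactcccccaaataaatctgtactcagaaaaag
mt-Co2: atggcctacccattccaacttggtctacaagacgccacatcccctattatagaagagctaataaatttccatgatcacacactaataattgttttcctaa
Gm28661: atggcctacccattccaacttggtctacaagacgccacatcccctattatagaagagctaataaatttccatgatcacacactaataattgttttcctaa

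Together the mitochondrial genes took 10961618 of 346695288 gene counts, or 3.16%. The rRNA genes held 55.03% of these counts, the protein genes 44.97% and the tRNA genes 17 counts. Every cell had at least 1 mitochondrial read, and 1 cell, of day 3, had none on mt-Rnr2, the large rRNA gene. For scale, the cytosolic 18S rRNA gene Rn18s.rs5 took 6.60% of gene counts.

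The median mitochondrial share per cell lay between 2.02% and 4.601% in all timepoints and pools with at least 10 cells. In pool A the share in fresh cells had a lowest value of 0.580%, a median of 2.02% and a highest value of 26.2%. At 6 h of the same pool the lowest, median and highest shares were 0.281%, 2.51% and 12.2%. At day 2 they were 0.681%, 3.11% and 13.1%. The medians were thus 0.32 (6 h) and 0.62 (day 2) higher than fresh on the log2 scale, while the ranges of the cells overlapped almost entirely.

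In pool B the order was different. Fresh cells ran from 0.462% through a median of 3.88% to 13.8%. Day 1 cells ran from 0.547% through 3.15% to 23.4%, and day 3 cells from 0.00101% through 3.02% to 28.5%. The medians of day 1 and day 3 were 0.30 and 0.36 lower than fresh on the log2 scale. Day 4 cells of this pool ran from 1.95% through 4.601% to 90.7%, a median 0.24 higher than fresh. The spread between cells widened more clearly than the median moved, since the middle 50% of cells lay between 3.21% and 4.33% in fresh cells, between 2.14% and 5.06% at day 3 and between 3.54% and 7.36% at day 4.

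Between the pools, fresh cells differed by 0.94 on the log2 scale, with the higher median in pool B. Their makeup differed as well, since cells with the T cell gene Cd3e were 12% of fresh cells in pool A and 54.3% in pool B, and cells without the B cell, T cell or macrophage markers described further on were 78.7% and 14.8%. Within classes the fresh medians were closer, at 3.20% in pool A and 3.96% in pool B for Cd3e cells, 2.62% and 3.19% for cells with the C1q genes of macrophages, and 1.87% and 2.70% for cells without markers (0.53 on the log2 scale). Among preserved cells, the day 4 group of pool C had a median of 2.65% (0.816% to 27.8%), 0.80 lower than those of pool B, and the median of the 2 day 4 cells in pool A was 1.54%. With all fresh cells as reference (median 3.07%) the direction at 6 h turned, to 0.29 lower on the log2 scale, and day 2 was 0.02 higher. Pool and animal cannot be told apart in these data, and the part of the makeup in the difference between pools was not tested.

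**Figure D1:**
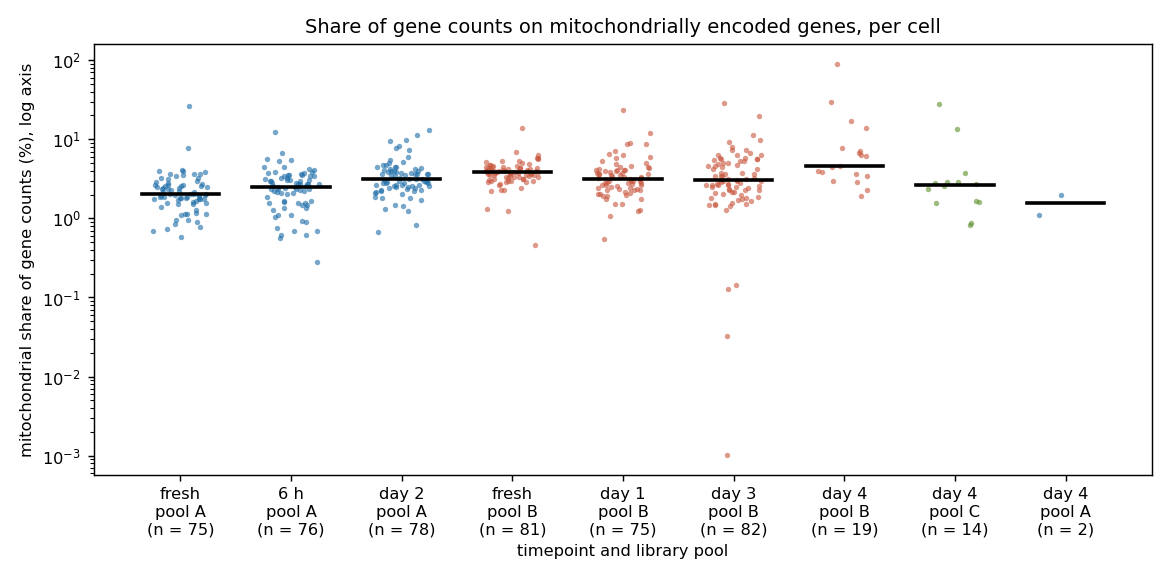
Mitochondrial share of gene counts per cell (percent, log axis) by timepoint and library pool. Each point is a cell, and each bar the median; the fresh medians are 2.02% (pool A) and 3.88% (pool B), and the cells of the groups overlap.

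Summed over cells, the mitochondrial share was 2.23% in fresh cells of pool A (exact 95% interval 2.23% to 2.23%), 2.63% at 6 h and 3.36% at day 2. In pool B it was 3.84% in fresh cells (3.83% to 3.84%), 3.57% at day 1 and 3.48% at day 3. The day 4 sums were 5.48% in pool B and 2.70% in pool C. These intervals cover counting error only, and not the spread between cells or animals. They are too narrow even for that where reads, which carry no molecular identifier, come from 1 molecule. Without the cell with the most mitochondrial counts, the sum of day 4 in pool B was 4.92%.

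Cells with a mitochondrial share of 10% or more were few up to day 3. There were 1 of 75 fresh cells, 1 of 76 at 6 h and 2 of 78 at day 2 in pool A. In pool B there were 1 of 81 fresh cells, 2 of 75 day 1 cells and 3 of 82 day 3 cells, the latter being 3.66% (exact 95% interval 0.761% to 10.3%). At day 4 there were 4 of 19 in pool B, or 21.1% (6.05% to 45.6%), and 2 of 14 in pool C, or 14.3% (1.78% to 42.8%). These intervals cover the draw of cells within 1 sample only, not the spread between animals. The day 4 cell with the highest share, 90.7%, had 54700 gene counts on 75 genes and no Ptprc read. The highest cell of pool C had 191226 gene counts on 395 genes, a share of 27.8% and again no Ptprc read. The highest fresh cell of pool A, at 26.2%, had 198437 gene counts on 1589 genes and 516 Ptprc reads. The highest cells of day 1 (23.4%), day 2 (13.1%) and day 3 (28.5%) had few genes too, at 311, 635 and 698, with 43, 1 and 20 Ptprc reads. The highest cells of 6 h (12.2%) and of the fresh cells in pool B (13.8%) had 1746 and 1461 genes, with 2371 and 1186 Ptprc reads. The part of few genes and Ptprc reads in the shares was not tested.

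The rRNA genes and the protein genes did not move together. The median log2 ratio of rRNA over protein gene counts per cell was 0.87 in fresh cells of pool A, 0.34 at 6 h and -0.06 at day 2. In the same order the protein genes took a median of 0.727%, 1.15% and 1.66% of a cell's gene counts, whereas the rRNA genes took 1.31%, 1.35% and 1.51%. The higher mitochondrial share of the preserved cells in pool A thus lay mainly in the protein genes. With protein genes alone, the day 2 median was 1.19 higher than fresh on the log2 scale. Within cells of 1 marker class the medians lay closer together. The log2 ratio of rRNA over protein was 0.34, 0.29 and 0.16 in Cd3e cells, 0.15, 0.27 and -0.42 in C1q cells, where it was higher at 6 h than in fresh cells, and 1.09, 0.67 and 0.50 in cells without markers. The protein genes took 1.34%, 1.40% and 1.69% in Cd3e cells, 1.10%, 1.39% and 1.39% in C1q cells and 0.623%, 0.663% and 1.34% in cells without markers, which fell from 78.7% of fresh to 21.8% of day 2 cells.

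In pool B the ratio was 0.31 in fresh cells and then 0.83 (day 1), 0.23 (day 3) and 0.41 (day 4). The protein genes took a median of 1.67%, 1.17%, 1.33% and 1.91% there, and the rRNA genes 2.17%, 2.06%, 1.77% and 2.58%. At day 4 of pool C the ratio was 0.54, with 1.25% on protein genes and 1.29% on rRNA genes. The lower median share at day 1 thus lay mainly in the protein genes, and that at day 3 in both classes.

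Cells with reads of the neutrophil markers S100a8 and S100a9, each at 10 rpm (reads per 1000000 gene counts) or more, had a high median of this ratio. They ranged from -0.20 to 12.3, and the other cells from -2.19 to 11.4. The set with S100a8 and S100a9 was chosen after the values had been seen. It held 42 of 502 cells, of which 19 were fresh cells of pool A and 16 came from the 6 h kidneys, with 4 from day 1, 1 from day 2 and 2 from the day 4 cells of pool C, while the fresh cells of pool B held none. Their median mitochondrial share was 1.12%, against 3.11% in the other 460 cells. The protein genes made the larger part of this difference, with medians of 0.106% and 1.35%, against 1.01% and 1.76% for the rRNA genes. The median log2 rRNA over protein ratio was 3.06 in these cells and 0.34 in the others. mt-Co1 had a read in 80.95% of them and in 98.9% of the others. Without these cells the median share was 2.26% in fresh cells of pool A, 2.73% at 6 h and 3.15% at day 2, so that 6 h and day 2 were 0.27 and 0.48 higher than fresh on the log2 scale, and the log2 rRNA over protein ratio was 0.45 (6 h) and 0.79 (day 2) below fresh. The fresh cells of pool B were then 0.78 higher than those of pool A.

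**Figure D2:**
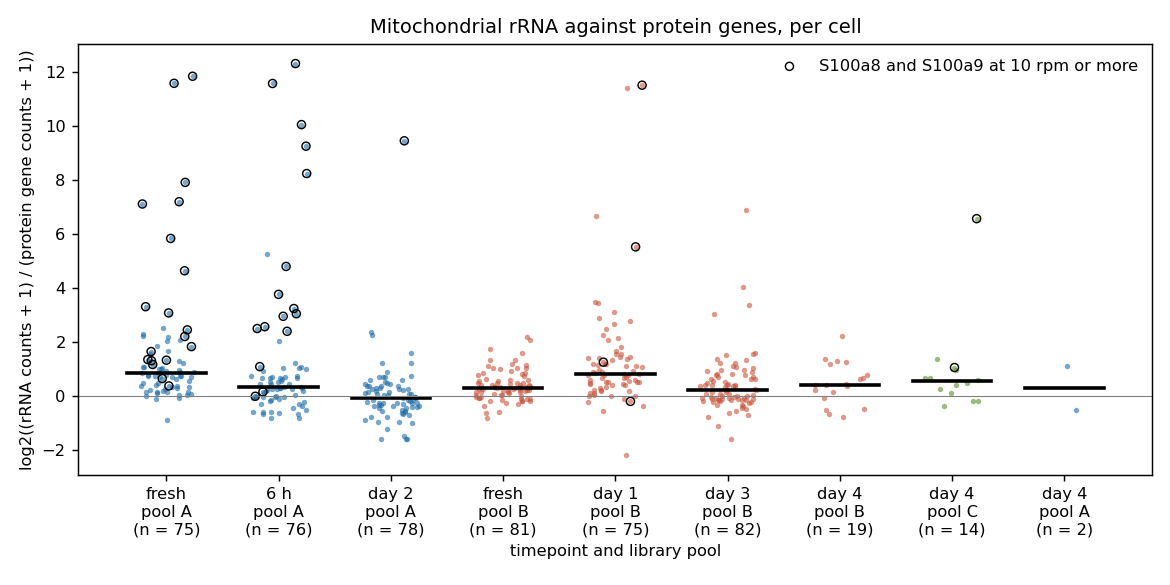
log2 ratio of mitochondrial rRNA counts over protein gene counts (1 added to each) per cell, by timepoint and library pool. Points are cells, bars medians, and open black circles the 42 cells with S100a8 and S100a9 at 10 rpm or more; most cells above 4 carry such a circle, and the medians of pool A go from 0.87 (fresh) to -0.06 (day 2).

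The 2 rRNA genes lie on the plus strand with only mt-Tv, a tRNA gene, between them, mt-Rnr1, the small rRNA, at chrM:70-1024 and mt-Rnr2 at chrM:1094-2675. The median level of mt-Rnr2 was 11625 rpm in fresh cells of pool A, 11878 at 6 h and 12840 at day 2. It was 19868 in fresh cells of pool B and then 19399 (day 1), 16470 (day 3) and 24617 (day 4). The level was thus set apart by pool more than by preservation up to day 2.

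mt-Rnr1 went the other way between pools. Its median was 1576 rpm in fresh cells of pool A, 1798 at 6 h and 1903 at day 2, but 1252 in fresh cells of pool B, 960 at day 1, 583 at day 3 and 1813 at day 4. At day 3 it had a read in 91.5% of cells, compared with 100% of the fresh cells of that pool. The median log2 ratio of mt-Rnr2 over mt-Rnr1 per cell was accordingly 2.90, 2.79 and 2.74 in fresh, 6 h and day 2 cells of pool A, and 3.93, 4.31, 4.70 and 4.35 in fresh, day 1, day 3 and day 4 cells of pool B. It was 3.03 at day 4 of pool C, close to pool A.

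Levels per length spread widely among the protein genes. As CPM (rpm of the summed counts) per kb of gene over all cells, mt-Rnr2 stood at 9983, mt-Co1 (complex IV) at 4317, mt-Nd1 (complex I) at 2671, mt-Cytb (complex III) at 2411 and mt-Rnr1 at 1683. The complex I genes mt-Nd5, mt-Nd4 and mt-Nd2 followed at 521, 511 and 404, and mt-Nd6, the only protein gene on the minus strand, at 108.04. The lowest were the ATP synthase gene mt-Atp6 at 53.9, mt-Co3 and mt-Co2 of complex IV at 46.7 and 32.6, mt-Atp8 at 13.7, and mt-Nd3 and mt-Nd4l of complex I at 11.2 and 3.69. The order near mt-Nd6 depended on the pool, since mt-Atp6 (88.01), mt-Nd6 (81.7) and mt-Co3 (75.8) lay close together in pool A, while in pool B mt-Nd6 stood at 147.6 and the other pair at 6.37 and 7.14. mt-Co1 made up a median of 43.9% (fresh, pool A) to 50.6% (day 1) of a cell's mitochondrial protein counts at each timepoint and pool.

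In pool B the 6 lowest protein genes were the 5 with an identical annotated copy over almost their whole length and mt-Atp8, while in pool A mt-Nd6, without a copied window, lay among them. Of all 75-base windows in a gene, 99.9% in mt-Co3, 99.5% in mt-Co2, 99.5% in mt-Atp6, 98.7% in mt-Nd4l and 97.8% in mt-Nd3 occurred exactly in another annotated transcript. The share was 61.5% in mt-Nd4, 39.8% in mt-Co1, 5.71% in mt-Nd2 and 1.66% in mt-Nd5, and 0 in mt-Nd1, mt-Cytb, mt-Nd6 and both rRNA genes. mt-Atp8, with a low level and no window in another annotated transcript, lies between mt-Co2 and mt-Atp6 and overlaps the latter. Reads over the overlap belong to both genes. On chromosome 1 the copy of mt-Atp6 ends at 24614651 and that of mt-Co2 starts at 24614885. Only annotated transcripts were searched, so whether mt-Atp8 has a copy between them cannot be told. A 75-base window is the length to which the reads were trimmed. Where a read that matches several places was left out of the counts, such windows cannot be counted, and the methods do not state how these reads were treated. Whether the copies account for the low levels was not tested.

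The copies form a block on chromosome 1. Gm28439 matches the first 876 bases of mt-Nd4 without a difference, Gm10222 matches 294 bases of mt-Nd4l, Gm28437 783 bases of mt-Co3, Gm10925 678 bases of mt-Atp6 and Gm28661 681 bases of mt-Co2, and Gm28438 matches 345 bases of mt-Nd3 with the single difference shown above. Gm29216 matches the end of mt-Co1 from base 1054 to base 1545 with 6 differences. On chromosome 2, Gm13340 is a copy of all 1545 bases of mt-Co1 with 37 differences. The copies also had reads, and some had about as many as the gene they match. Gm28661 had 7716 counts and mt-Co2 7736, Gm28437 had 16967 and mt-Co3 12691, Gm10925 had 11130 and mt-Atp6 12733, and Gm28438 had 12548 and mt-Nd3 1355. Counts of a gene and its copy are uncertain, since reads cannot be assigned to either where the sequences are the same. All annotated copies together held 88212 counts, or 0.0254% of gene counts and 0.805% as many as the mitochondrial genes. How many reads were left out for matching both a gene and its copy cannot be read from the counts, and the effect on the mitochondrial share was not tested.

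**Figure D3:**
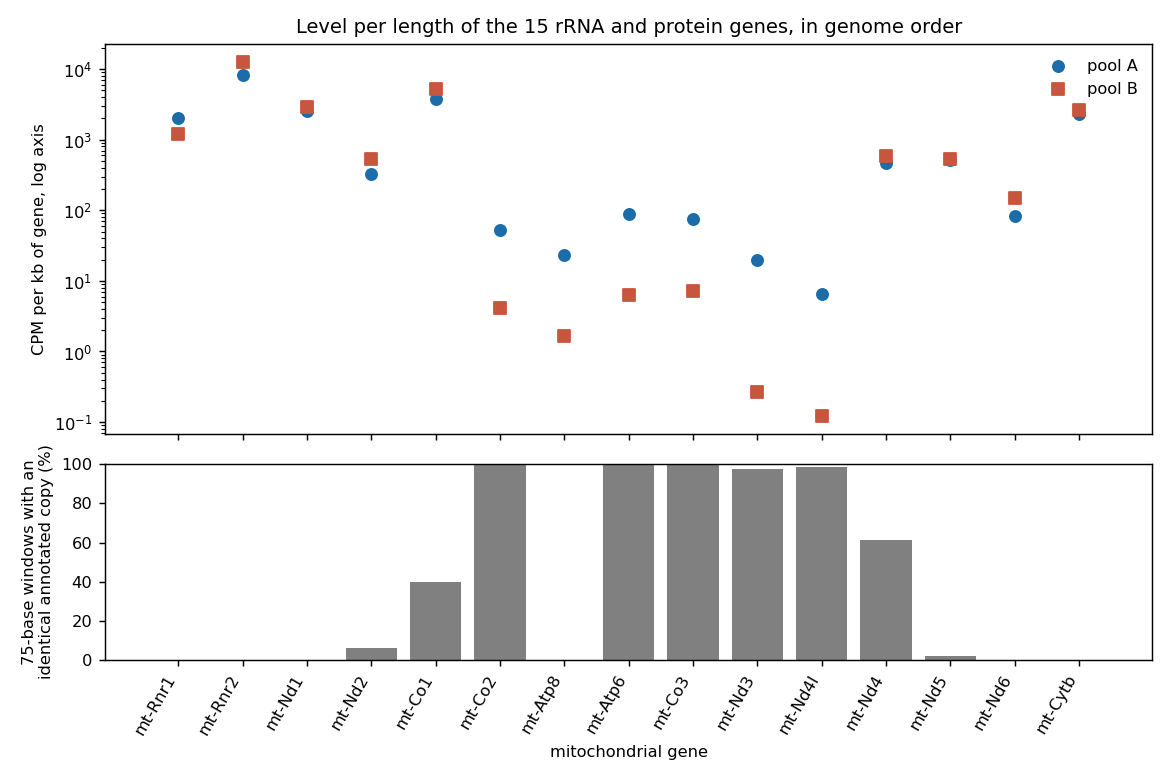
Level of the 15 mitochondrial rRNA and protein genes in CPM per kb (log axis) in pools A and B, in genome order, above the percentage of 75-base windows with an identical annotated copy. mt-Co2, mt-Atp6, mt-Co3, mt-Nd3 and mt-Nd4l, each with at least 97.8% of windows copied, are low, and lower in pool B. So is mt-Atp8, with no window in another annotated transcript.

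The low genes also separated the pools. Between pool B and pool A, over all cells, the log2 ratio of summed CPM was -3.71 for mt-Co2, -3.79 for mt-Atp6, -3.80 for mt-Atp8, -3.41 for mt-Co3, -5.75 for mt-Nd4l and -6.21 for mt-Nd3. The other protein genes lay between 0.03 (mt-Nd5) and 0.85 (mt-Nd6), mt-Rnr2 at 0.65 and mt-Rnr1 at -0.76. As log2 ratios of fresh medians these protein genes lay between 0.89 (mt-Nd5) and 1.70 (mt-Nd6), mt-Rnr2 at 0.77 and mt-Rnr1 at -0.33. In fresh cells alone the median of mt-Atp6 was 38.4 rpm in pool A and 3.50 in pool B, and that of mt-Co2 was 18.3 and 2.14. mt-Nd3 had a read in 56% of fresh cells of pool A and in 3.70% of fresh cells of pool B, and mt-Nd4l in 36% and 2.47%. Most copies followed the same pattern, with log2 ratios of pool B over pool A of -3.79 for Gm10925, -4.19 for Gm28661, -3.55 for Gm28437, -6.49 for Gm28439 and -6.79 for Gm10222. Gm28438, the copy of mt-Nd3, did not, at 36.7 CPM over all cells in both pools. Its median in fresh cells alone was instead higher in pool B, at 25.6 rpm against 7.87 in pool A. Within pool A the median of Gm28438 was higher at 6 h and at day 2 than in fresh cells, so the equal sums combine timepoints of unlike level. The methods give more than 1 sequenced read length, without saying which cells had which. Reads were trimmed to 1 length before alignment, and the cause of the difference between pools was not tested.

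The tRNA genes were almost without reads. They are 59 to 75 bases long, and 21 of the 22 are shorter than a 75-base read. mt-Ts1 (serine) had 11 counts in 10 cells, mt-Tl1 (leucine) 3 counts, mt-Tp (proline) 2 and mt-Tq (glutamine) 1, all 17 of them in pool B, and the other 18 had none. For each of these, 0 of 502 cells allows a share of up to 0.598% of cells with a read. mt-Tl1 at chrM:2676-2750 is the only tRNA gene as long as a read, and mt-Ts1 at chrM:6870-6938, on the minus strand, touches the last 3 bases of mt-Co1 on the plus strand. The sequences of the gene as long as a read and of the shorter gene with most counts are shown, with no base in capitals.
mt-Tl1: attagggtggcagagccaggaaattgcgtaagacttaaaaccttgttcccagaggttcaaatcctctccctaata
mt-Ts1: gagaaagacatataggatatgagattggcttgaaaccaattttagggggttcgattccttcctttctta

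Single protein genes were then followed over time. In pool A mt-Co1, the catalytic subunit of complex IV, had a median of 3347 rpm in fresh cells (quartiles 1572 and 4631), 5159 at 6 h (2553 and 6990) and 7651 at day 2 (5689 and 10659). mt-Cytb of complex III had medians of 1079 rpm in fresh cells, 1894 at 6 h and 3089 at day 2, and mt-Nd1 of complex I had 1343, 2069 and 2970. These 3 genes were higher at both preserved timepoints of this pool, and at day 2 the lower quartile of mt-Co1 lay above the upper quartile of the fresh cells. mt-Cytb had a read in 89.3% of fresh cells, in 85.5% of 6 h cells and in 100% of day 2 cells.

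mt-Nd2 and mt-Nd6 of complex I did not follow them. mt-Nd2 had a median of 142.01 rpm in fresh cells of pool A, 31.7 at 6 h and 167.08 at day 2. mt-Nd6 had 19.9 in fresh cells, 2.11 at 6 h and 5.18 at day 2, and a read in 70.7%, 53.9% and 61.5% of cells. On summed CPM, mt-Nd6 was lower at both timepoints (log2 ratios -0.49 and -0.59), and mt-Nd2 was lower at 6 h (-0.33) and higher at day 2 (0.81). mt-Nd6 lies on the other strand and its last bases overlap those of mt-Nd5, so its level is uncertain where strand was ignored.

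In pool B mt-Co1 had a median of 8048 rpm in fresh cells (quartiles 5272 and 10168), 6015 at day 1 (2578 and 8295), 7006 at day 3 (4058 and 10990) and 7660 at day 4. The quartiles of the groups overlapped. mt-Cytb had 2969, 1585, 2345 and 3853 rpm at these timepoints, and mt-Nd1 2784, 1632, 2450 and 3816. mt-Nd5 had 1072 rpm in fresh cells, 433 at day 1, 422 at day 3 and 640 at day 4, and was read in 95.1%, 77.3%, 79.3% and 84.2% of cells. mt-Nd6 had 64.8, 29.2, 38.4 and 26.3 rpm. mt-Co1, mt-Cytb and mt-Nd1 had their lowest medians at day 1, mt-Nd5 at day 3 and mt-Nd6 at day 4. On summed CPM mt-Nd6 was instead highest at day 4, at 116.8 against 87.05 in fresh cells, with 30% of its counts from 1 cell. The log2 ratios of mt-Nd5 on sums were -0.18 (day 1), -0.32 (day 3) and -0.10 (day 4).

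Summed counts of each preserved group were next set against fresh cells of the same pool, over every gene that reached 50 counts in each of the sums compared. A gene was called past 2-fold where the ratio of CPM exceeded 2 in either direction. With 1 sample a group this has no replicate check. At 6 h, 2 of 14 mitochondrial genes tested were past 2-fold higher, mt-Atp8 (log2 ratio 1.01) and mt-Nd3 (1.06), against 21.5% of all genes, and 0 were lower, against 15.1% of all genes. At day 2, 6 of 14 were higher, against 27.1% of all genes, and 0 were lower, against 18.4%. The 6 genes were mt-Cytb (log2 ratio 1.35), mt-Nd3 (1.28), mt-Atp8 (1.19), mt-Nd4 (1.19), mt-Co1 (1.10) and mt-Nd1 (1.01). The median log2 ratio of the mitochondrial genes tested was 0.46 at 6 h and 0.99 at day 2, beside 0.16 and 0.23 over all genes tested. mt-Rnr2 was at 0.03 and 0.18, and mt-Rnr1 at 0.03 and 0.37. With TMM factors the numbers past 2-fold higher were 0 at 6 h, where 17.8% of all genes were, and 2 at day 2, where 22% were. On the mean of log2(rpm + 1) over cells, which understates the changes of low genes, 9 of 14 were higher at day 2, against 2.8% of all genes. At 6 h 1 was higher on this scale, against 1.38%, and 2 were lower, against 10.9%.

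In pool B no mitochondrial gene tested passed 2-fold in summed CPM in any preserved group. On the mean of log2(rpm + 1) over cells, a scale that understates the changes of low genes, 7 of the 12 tested were past 2-fold lower at day 1, where 5.56% of all genes were, and 5 of 12 at day 3, where 10.2% were. On this scale 1 of 11 was higher at day 4, against 4.12% of all genes, and 2 were lower, against 25.2%. On summed CPM, at day 1 there were 0 of 12 higher, where 20.1% of all genes were, and 0 lower, where 21% were. At day 3 there were again 0 of 12 in each direction, where 21.1% of all genes were higher and 22.4% lower. At day 4 there were 0 of 11 in each direction, where 33.2% were higher and 22.8% lower. The median log2 ratios were -0.29, -0.11 and 0.43, beside -0.08, -0.08 and 0.25 over all genes tested. Depth differed widely among the mitochondrial genes tested, from 818040 counts for mt-Rnr2 to 92 for mt-Co2 in the day 1 sums, and the background shares do not describe genes of equal depth.

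Between the fresh cells of the pools, 4 of 12 mitochondrial genes were past 2-fold higher in pool B, where 28.2% of all genes were, and 3 were lower, where 19.1% were. mt-Cytb (log2 ratio 1.21), mt-Co1 (1.18), mt-Nd2 (1.17) and mt-Nd4 (1.05) were higher, and mt-Atp6 (-3.30), mt-Co2 (-2.96) and mt-Co3 (-2.67) were lower. Between the day 4 cells of pool C and those of pool B, 2 of 11 were higher, where 22.7% of all genes were, and 5 were lower, where 32.9% were. The higher genes were mt-Atp6 (2.80) and mt-Co3 (1.93), and the lower ones mt-Nd2 (-2.42), mt-Nd6 (-1.56), mt-Cytb (-1.23), mt-Co1 (-1.17) and mt-Rnr2 (-1.08). The minimum of 50 counts in each sum left out genes because they were low in pool B, such as mt-Co2 at day 4 (378 counts in pool C and 33 in pool B) and mt-Atp8, mt-Nd3 and mt-Nd4l between fresh cells. Without a minimum, 6 of 17 genes were past 2-fold lower between the fresh pools, where 33.3% of all genes were, and 5 of 16 higher between the day 4 pools, where 50.6% were.

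**Figure D4:**
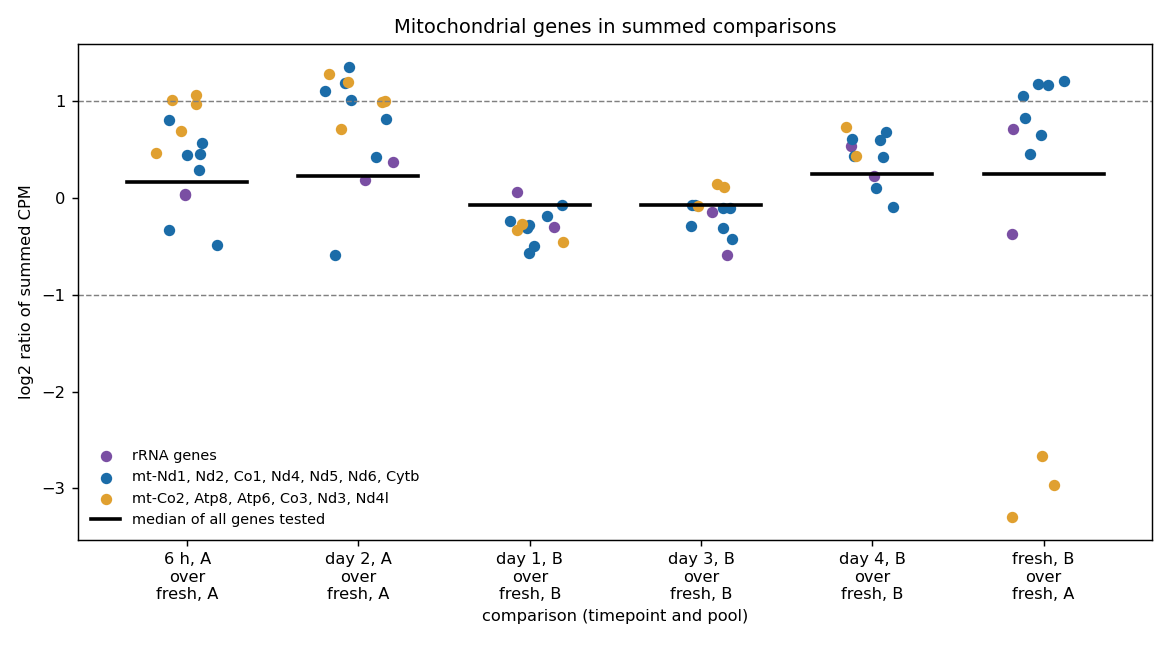
log2 ratio of summed CPM of each mitochondrial gene tested, in 5 comparisons of preserved over fresh cells of the same pool and in fresh cells of pool B over pool A. Points are genes coloured by class, black bars the median of all genes tested, and dashed lines 2-fold; in pool B all preserved points lie within the dashed lines.

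The mitochondrial share was then compared with the number of genes detected per cell, after thinning each cell to 100000 counts, which kept 494 cells. Within each timepoint and pool, cells were split into 4 parts by genes detected. At day 2 the part with fewest genes (516 to 1130) had a median share of 4.55%, and the part with most genes (1613 to 5234) 2.60%. At day 3 these medians were 5.30% and 2.74%, and at day 1 they were 4.23% and 2.81%. In fresh cells of pool B they were 3.79% and 3.98%. The Spearman correlation over cells, given as a description, was -0.43 at day 2 (78 cells), -0.30 at day 3 (81 cells), -0.27 at day 1 (74 cells) and -0.04 in fresh cells of pool B (80 cells). The part with fewest genes thus had the highest median share at days 1 to 3, and in fresh cells of pool B there was hardly any relation. Single shares in that part spread widely, from 0.547% to 23.4% at day 1, 0.681% to 13.1% at day 2 and 0.00101% to 28.5% at day 3. Share and genes come from the same reads of a cell.

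In fresh and 6 h cells of pool A the part with fewest genes had the lowest median share. The part of fresh cells with fewest genes had a median share of 1.52%, and that with most genes 2.31%. At 6 h these were 1.60% and 2.41%, but the part with the next fewest genes had the highest median, 3.40%. The correlation was 0.30 in fresh cells (74 cells) and 0.12 at 6 h (74 cells). The cells with few genes there were poor in protein gene reads, at 0.140% in fresh cells and 0.112% at 6 h, and had log2 rRNA over protein ratios of 2.45 and 2.57. Without the cells with S100a8 and S100a9 the correlation turned to -0.17 in fresh cells and -0.26 at 6 h. At day 4 it was 0.10 in pool B (17 cells) and -0.04 in pool C (14 cells). Without thinning the former was -0.30.

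**Figure D5:**
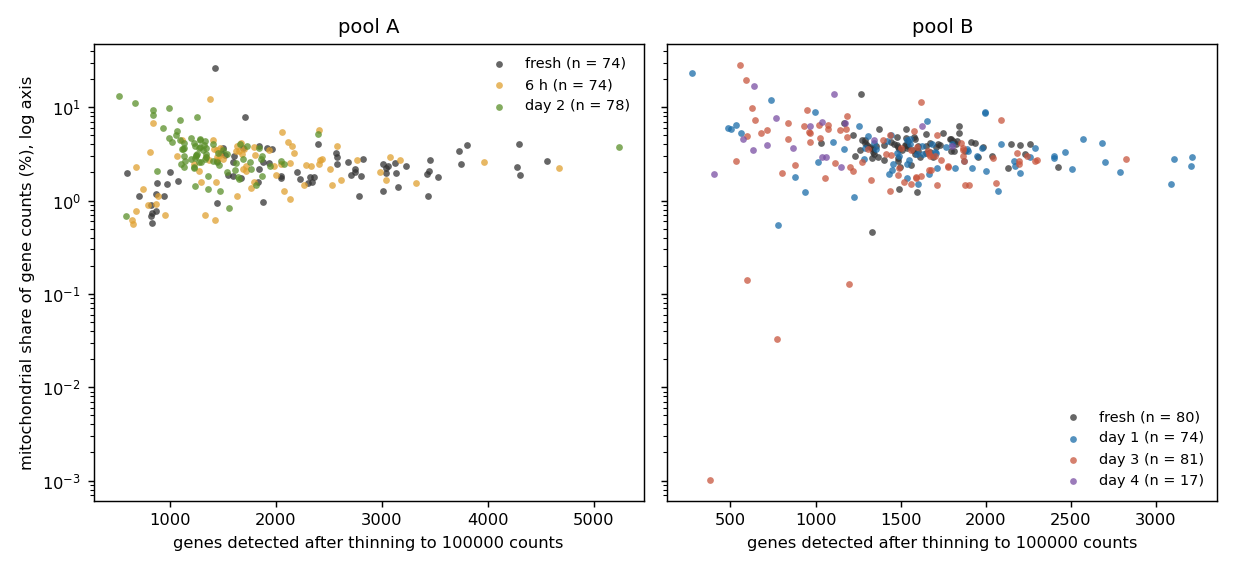
Mitochondrial share of gene counts per cell (percent, log axis) against genes detected after thinning to 100000 counts, for pools A and B. Points are cells coloured by timepoint. At day 2 and day 3 the part of cells with fewest genes has the highest median share, 4.55% and 5.30%, though its single shares spread widely.

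The cell makeup differed between timepoints, so the share was also given within cells defined by markers at 10 rpm or more. Over all timepoints, 73 cells with the B cell receptor genes Cd79a and Cd79b had a median share of 3.84%, the 21.1% of cells with the T cell gene Cd3e 3.75%, the 23.5% with the macrophage complement genes C1qa, C1qb and C1qc 2.92%, and the 40.2% with none of these 2.26%. Another 3 cells met several rules. The cells with none were 78.7% of fresh cells of pool A, 55.3% of 6 h cells and 21.8% of day 2 cells.

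Within these classes the difference between fresh and preserved cells of pool A was smaller than over all cells or had the opposite direction. Cd3e cells had a median share of 3.20% in fresh cells (9 cells), 3.18% at 6 h (20 cells) and 3.77% at day 2 (16 cells). C1q cells had 2.62% (7 cells), 2.54% (5 cells) and 2.42% (15 cells). Cells with none of the markers had 1.87%, 1.66% and 2.60%. No fresh cell of pool A had both Cd79a and Cd79b, which had 3.56% at 6 h (8 cells) and 3.62% at day 2 (29 cells).

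In pool B the Cd3e cells had a median of 3.96% in fresh cells (44 cells), 4.86% at day 1 (7 cells) and 4.49% at day 3 (7 cells). Cells with Cd79a and Cd79b had 4.00% (16 cells), 3.93% (14 cells) and 4.92% (4 cells). C1q cells had 3.19% (8 cells), 2.97% (20 cells), 3.01% (51 cells) and, at day 4, 4.20% (10 cells). Cells with none of the markers had 2.70% (12 cells), 2.65% (34 cells), 2.64% (20 cells) and, at day 4, 6.32% (7 cells). The classes of lymphocyte genes were thus at or above fresh on days 1 and 3, apart from the slightly lower value of the Cd79a and Cd79b cells at day 1, whereas the medians over all cells and over the C1q cells were below fresh. Cells without markers differed from fresh by -0.03 on the log2 scale at both timepoints, which turned to 0.11 and 0.12 where 1 read sufficed for a marker. The C1q cells were 9.88% of fresh cells of this pool and 62.2% of day 3 cells.

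Markers of other cells were also read. Of 9 genes of kidney epithelium, whose cells are rich in mitochondria, 0 to 6 had a read in a timepoint and pool. In pool A 14.7% of fresh cells, 19.7% of 6 h cells and 23.1% of day 2 cells had such a read, against 2.47% of fresh cells in pool B, 8% at day 1, 4.88% at day 3 and 5.26% at day 4. Without the cells that had one, a setting added after the data were seen, the median mitochondrial share differed from fresh by 0.33 at 6 h and 0.60 at day 2 in pool A on the log2 scale, while in pool B the difference was -0.37 for day 1, -0.36 for day 3 and 0.48 for day 4. The summed level of the 9 had a median of 0 rpm in each group, was at most 2925 rpm in a cell, and Aqp1 and Aqp2 were at 0 in all groups. Of 5 erythroid genes 0 to 3 had a read, with at most 161.04 rpm in a cell.

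The mitochondrial genes varied together across cells to different degrees. The median Spearman correlation over pairs of the rRNA and protein genes read in at least 10 cells was 0.48 in fresh cells of pool A, 0.50 at 6 h and 0.35 at day 2. It was 0.17 in fresh cells of pool B, 0.33 at day 1, 0.33 at day 3 and 0.35 at day 4, and 0.64 at day 4 of pool C. The points are cells of 1 sample that share depth and total. The most alike pair was mt-Co1 with mt-Cytb in fresh cells of both pools (0.78 and 0.48) and at day 1 (0.66), and mt-Rnr1 with mt-Rnr2 at 6 h (0.84), day 2 (0.75), day 3 (0.76) and day 4 of pool B (0.78). In the other day 4 pool it was mt-Nd1 with mt-Cytb (0.91).

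The respiratory chain also has nuclear subunits. Of 78 listed nuclear subunit genes of complexes I to V, all 78 were tested at 6 h and at day 2, with 2 past 2-fold higher and 2 lower at 6 h, and 2 higher and 4 lower at day 2, below the shares of all genes given above (21.5% and 15.1% at 6 h, 27.1% and 18.4% at day 2). Their median log2 ratio was 0.01 and -0.12 there, beside 0.46 and 0.99 for the mitochondrial genes. Atp5b, the catalytic beta subunit of ATP synthase, had log2 ratios of 0.07 and 0.05. Atp5a1 and Atp5f1, also of ATP synthase, had 0.32 and 0.84, and -0.15 and -0.38. Cox4i1 of complex IV had 0.30 and -0.05. In pool B the median was -0.30 at day 1 and 0.03 at day 3. Past 2-fold, 0 were higher and 4 lower at day 1, where 20.1% and 21% of all genes were, and 2 higher and 4 lower at day 3, where 21.1% and 22.4% were. At day 4 it was 0.05, with 14 of 74 higher and 16 lower, where 33.2% and 22.8% of all genes were. The nuclear subunits took a median of 1.08% of a fresh cell's counts in pool A and 1.08% in pool B, while the mitochondrial protein genes took 0.727% and 1.67%.

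A second list held 35 genes of mitochondrial RNA synthesis, processing and turnover, of which 34 were in the table. At 6 h 7 of 27 tested were past 2-fold higher and 1 lower, where 21.5% and 15.1% of all genes were. At day 2 11 of 27 were higher and 3 lower, against 27.1% and 18.4%. At day 1 3 of 26 were higher and 9 lower, against 20.1% and 21%, and at day 3 1 of 27 was higher and 7 lower, against 21.1% and 22.4%. The median log2 ratios were 0.40, 0.91, -0.46 and -0.23. At day 4 of pool B 0 of 10 were higher and 2 lower, against 33.2% and 22.8%, with a median of -0.32. Nrf1, with the most counts of this list, had log2 ratios of 0.99 (6 h), 0.91 (day 2), -0.60 (day 1) and 0.27 (day 3). Lrpprc, which stabilises mitochondrial mRNAs, had 0.12, 1.32, -0.29 and -0.74 in the same order. Nrf1 was read in 14.9% of cells and Lrpprc in 14.7%, and the list as a whole is thinly counted.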

How the data were processed

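Single Cd45+ cells were sequenced without molecular identifiers by a modified SmartSeq2 protocol. The authors used picard to remove duplicates from reads trimmed to 75 bases, STAR for alignment to GRCm38 and HTSeq, in its intersection-strict mode and without regard to strand, for counting, and kept cells of 1000 reads or more. The sources used here do not give their versions. The deposited values are raw counts. The 97 rows that name no gene held 0.140% of counts and were left out. Counts were divided by a cell's gene counts (rpm) or, summed over cells of a timepoint and pool, by the summed gene counts (CPM), for genes reaching 50 counts in each sum and groups of 10 cells or more. Alternatives used TMM (edgeR 4.0.16), size factors (DESeq2 1.42.0) and other scales. No test was made. Every member is accounted for. Nuclear genes named are among those with most counts of each list. Copies are transcripts sharing a 50-base run with a member, found after values were seen. The ratio of sums was checked on simulated counts. Members and lists were chosen with earlier results of these data known. Python 3.11.15, pandas 2.3.3 and scipy 1.17.1 were used.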

Additional observations from a re-analysis of the deposited data

How the results depend on the processing

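Of 364 values recomputed, most stayed within tolerance, 97 of them for single genes, with 24 main results and 67 single-gene results outside it (0.5 on the log2 scale, 0.1 for correlations, 1.5 times for counts) and 3 of each reversed, which was called only for a log2 ratio past 2-fold or a correlation past 0.1. Against all fresh cells the log2 difference of the median share was -0.29 at 6 h and 0.018 at day 2, and with protein genes only it was 1.19 at day 2. Members past 2-fold higher at 6 h were 0 with TMM factors and 0 with size factors, where 17.8% and 18.5% of all genes were. With totals without mitochondrial and 18S rows there was 1, against 21%. With mean log2(rpm + 1) there was 1 higher, against 1.38%, and 2 lower, against 10.9%. At day 2 TMM gave 2 higher, against 22%. Without a minimum count 2 of 19 were higher and 2 lower at day 1, against 31.2% and 26% of all genes. At day 3, 1 of 18 was higher and 2 lower, against 27.1% and 31.9%. At day 4 in pool B, 4 of 17 were higher, against 23.9%. Between fresh pools 6 of 17 were lower, against 33.3%, and between the day 4 pools 5 of 16 were higher, against 50.6%. With mean log2(rpm + 1) 7 of 12 were lower at day 1, against 5.56% of all genes, and 5 of 12 at day 3, against 10.2%. At day 4 of pool B, 1 of 11 was higher, against 4.12%, and 2 were lower, against 25.2%. Between fresh pools 7 of 12 were higher, against 4.5%. Size factors gave 2 of 11 higher at day 4 of pool B, against 42.4% of all genes. Leaving out the cell with most mitochondrial counts gave 1 of 10 higher between the day 4 pools, against 23.1%. The correlation with genes detected was -0.30 at day 4 of pool B without thinning, and -0.17 in fresh cells of pool A, -0.26 at 6 h and -0.41 at day 4 of pool C without the cells with S100a8 and S100a9, a set added after the data were seen. Smaller ratios changed sign too. As a share of protein gene counts, 19 of 53 log2 ratios of single-gene medians took the other sign, such as mt-Nd2 at day 2 (0.23 to -0.93), mt-Nd5 at day 2 (0.44 to -0.66) and mt-Nd1 at day 4 of pool B (0.45 to -0.51), and among genes past 2-fold the ratio turned to -0.085 for mt-Co3 at day 2 and to -0.065 for mt-Nd1 between fresh pools, and to -0.088 for mt-Nd1 as a share of 7 protein genes. The causes were not tested. No paired analysis was possible because the labels name no animal and no comparison comes from a test. With 1 sample a group, no replicate could be left out, and a gene with no read may be below detection at this depth.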

Other observations

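At day 4 of pool B the share of nuclear respiratory chain subunits and that of the mitochondrial protein genes went in opposite directions across the 19 cells, with a Spearman correlation of -0.60, whereas it was 0.43 in the 75 fresh cells of pool A and 0.18 in the 81 fresh cells of pool B. It was -0.01 among the 14 day 4 cells of pool C. The other preserved groups lay between -0.17 (day 3) and 0.18 (6 h). Both are shares of the same total, and the cells are of 1 sample.

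Among the 42 cells with S100a8 and S100a9, the mitochondrial protein genes ranged from 0% to 4.79% of gene counts, and the log2 rRNA over protein ratio from -0.20 to 12.3. The level of mt-Rnr2 in them had a median of 8292 rpm, compared with 16213 in the other cells, while mt-Co1 had 622 and 6529.

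Gm28438 was the only one of the chromosome 1 copies whose CPM over all cells was about the same in pools A and B. Its median in fresh cells was 7.87 rpm in pool A and 25.6 in pool B. It had 12548 counts in 335 cells, more than the 1355 counts of mt-Nd3.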
